A study of Mus musculus with 8 samples.

Results

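The genes described here are 10 components and targets of bone morphogenetic protein (BMP) signalling in mouse small intestinal organoids, out of 55416 gene IDs in each deposited table. They were given as a list of symbols and are the target genes Id1, Id2 and Id3, the inhibitory Smads Smad6 and Smad7, the ligands Bmp2, Bmp4 and Bmp8b, and the receptors Bmpr1a and Bmpr2. All 10 were found by symbol in the table of expected counts and in that of TPM, and 8 of them were among the 14063 genes that passed the filter on low counts. Smad6 and Bmp4 did not pass it. The organoids were grown from intestinal epithelial cells of C57BL/6 mice aged 4 to 8 weeks. In every group the mice were Tg/Tg for Rosa26-rtTA and also Tg/Tg for Col1A1-TetO-OSKM, an inducible transgene for reprogramming factors, and the labels name no inducer in these samples. Control organoids were not irradiated, and irradiated organoids received 6 Gy of X-rays. Each kind was collected at day 4 and day 7, which makes 4 groups of 2 libraries. The labels do not say when the count of days began, nor whether the 2 libraries of a group came from separate mice or cultures, so a p-value measures only the spread between these libraries.

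BMPs are secreted ligands that bring type 1 and type 2 receptor kinases together on the cell surface. The type 1 receptor then phosphorylates Smad1, Smad5 and Smad9, which enter the nucleus with Smad4 and switch on target genes, the Id genes and the feedback inhibitors Smad6 and Smad7 among them. In the intestine BMP activity is higher along the villus than at the crypt base, where antagonists from the mesenchyme hold it down, and it restrains stem cell renewal. Id proteins lack a DNA-binding domain and block E proteins and other helix-loop-helix factors by pairing with them.

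The libraries held between 7541764 and 16054269 expected counts, so that 1 count stood for 0.0610 to 0.120 CPM (counts relative to a library size that edgeR's TMM method adjusts). Mitochondrial transcripts took 12.9% to 27.6% of the counts, with the highest share in irradiated replicate 2 of day 4. The 6 epithelial markers (Epcam, Cdh1, Krt8, Krt18, Vil1 and Cdx2) summed to between 3449 and 5573 CPM in each library. The 12 mesenchymal markers summed to between 2.45 and 4.73 CPM. Pdgfrb, Tagln and Col1a1 had the most counts of them, 131, 78 and 54 in all 8 libraries together. The fibroblast genes Dcn and Lum had 1 count each. By the sum, the cells that supply much BMP ligand and antagonist in the living intestine were nearly absent. In RNA from whole organoids, fewer cells of a type and less RNA per cell cannot be told apart.

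On the TPM scale, which corrects for gene length, the genes fell into 4 tiers by the mean of their group means. Bmpr1a was the most abundant, with a mean of the 4 group means of 30.7 TPM and libraries from 24.93 to 35.77 TPM, above every library of the other 9 genes. Id2 (15.0 TPM), Id1 (9.35 TPM) and Bmpr2 (8.56 TPM) came next, and their ranges overlapped. Bmp2 (2.2 TPM), Bmp8b (1.80 TPM), Id3 (1.6 TPM) and Smad7 (1.22 TPM) formed the third tier, again with ranges that overlapped. Smad6 (0.121 TPM) and Bmp4 (0.0475 TPM) were close to the detection limit. The receptors for BMP were thus measured at higher levels per length than any of the 3 listed ligands.

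**Figure D1:**
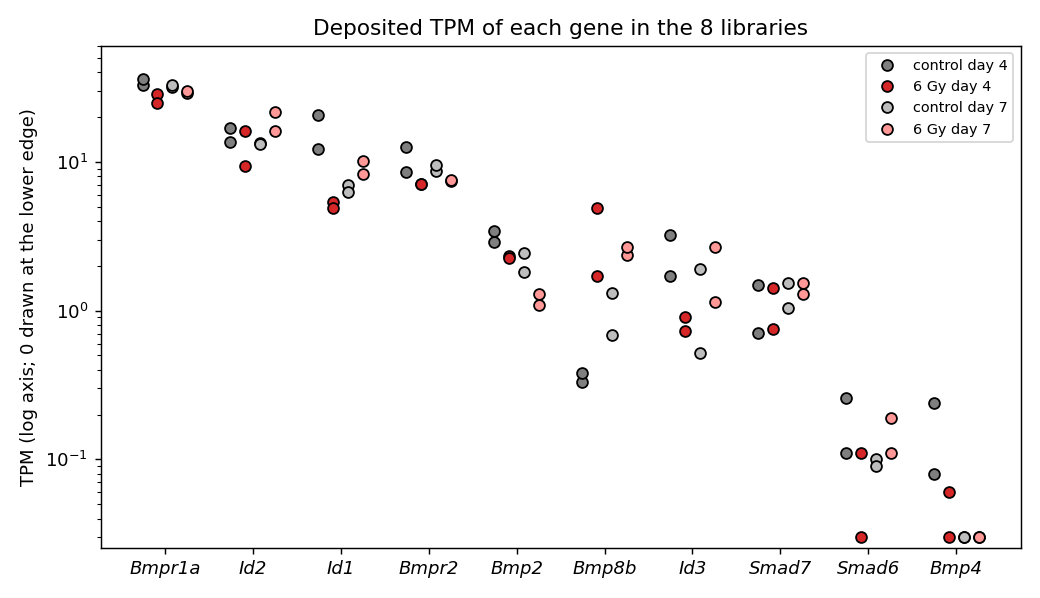
Deposited TPM (vertical log axis) of each of the 10 genes in the 8 libraries, with 1 point for each library and colours for the 4 groups. Bmpr1a lies highest, at 24.93 to 35.77 TPM, and Smad6 and Bmp4 lie lowest, with libraries listed at 0 drawn at the lower edge.

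Among these genes, irradiation at day 4 went with less Id1, more Bmp8b and slightly less Bmpr1a. Of the 8 tested, 1 was called higher and 2 lower in irradiated than in control organoids (edgeR quasi-likelihood test, Benjamini-Hochberg adjusted p under 0.05), that is 3 of 8, while 36.5% of all 14063 genes were called in this comparison. The median log2 fold change was -0.25 over the 8 and 0.00 over all genes tested. A share of calls like that of the whole transcriptome is no result about the list, and the values of the single genes follow.

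Id1, the Id gene most often used as a readout of BMP signalling, stood at 8.69 and 13.2 CPM in the control libraries of day 4. It stood at 3.66 and 4.14 CPM in the irradiated libraries of that day. In control organoids of day 7 it was at 4.51 and 4.05 CPM, and in irradiated organoids of day 7 at 4.80 and 5.78 CPM. The control libraries of day 4 were thus the high ones, and the other 6 libraries lay together below them. Id1 was 2.83-fold lower after irradiation at day 4 (10.96 ± 3.21 against 3.90 ± 0.340 CPM, SD, n = 2), a log2 fold change of -1.499 with an SE of 0.26 (adjusted p = 0.00143). This fall was called under all of the alternative settings, with log2 fold changes from -1.78 to -1.16 and a highest adjusted p of 0.0118. At day 7 the irradiated organoids were not below the controls (log2 fold change 0.30, SE 0.27, adjusted p = 0.534). The irradiation effect on Id1 differed between the days by 1.80 on the log2 scale (SE 0.38, adjusted p = 0.0173), where 10.1% of all genes were called. That call was lost without any of the 4 libraries of day 7 (adjusted p = 0.0580 to 0.0876).

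In control organoids Id1 was 2.58-fold lower at day 7 than at day 4 (log2 fold change -1.37, SE 0.25, adjusted p = 0.0227), and it was the 1 of the 8 tested genes called in this comparison, where 2.72% of all genes were. The call was lost without control replicate 2 of day 4 (log2 fold change -1.02, adjusted p = 0.124), without control replicate 1 or 2 of day 7 (adjusted p = 0.178 and 0.260), and without irradiated replicate 1 or 2 of day 7 (adjusted p = 0.0617 and 0.0614). It was also lost on log2(TPM + 1) and log2(TPM + 0.1), at adjusted p = 0.137 and 0.146. In irradiated organoids both day 7 libraries lay above both of day 4, but the difference in Id1 was not called (0.43, SE 0.28, adjusted p = 0.259).

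Id3, a second BMP target of the family, had few reads, and its highest library was also a control of day 4. Its counts were 18 and 38 in control organoids of day 4, 7 and 8 in irradiated organoids of day 4, 14 and 5 in controls of day 7, and 9 and 13 in irradiated organoids of day 7. In CPM, the 2 control libraries of day 4 (1.53 and 2.32) lay above both irradiated ones of that day, while the groups of day 7 overlapped. Unlike for Id1, the lower control of day 4 was not above all other libraries. Irradiated replicate 2 of day 7 stood at 1.56 CPM. The day 4 difference had a log2 fold change of -1.25 with an SE of 0.59 and was not called (adjusted p = 0.124). By counts alone, pooled over each group, the control level was 2.45 times the irradiated one (exact binomial interval at 95% confidence 1.37 to 4.67), which covers counting error only and not the spread between libraries. Across the 8 libraries Id1 and Id3 had a Pearson r of 0.81 on log2 CPM, a description over points that share the 4 groups.

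Id2, which marks many epithelial and immune cell types, was the most abundant of the Id genes by the mean of the 4 group means in TPM. In controls of day 4 alone, Id1 averaged 16.4 TPM and Id2 15.2 TPM. Id2 stood at 13.04 and 14.8 CPM in controls and at 15.1 and 11.1 CPM in irradiated organoids at day 4, so the groups overlapped. At day 7 it stood at 11.9 and 11.5 CPM in controls and at 12.8 and 17.1 CPM after irradiation. Id2 was not called at day 4 (log2 fold change -0.09, SE 0.19, adjusted p = 0.747), at day 7 (0.35, SE 0.20, adjusted p = 0.306) or between the days. Its r with Id1 over the libraries was 0.36.

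The upstream sequences of Id3, Id2 and Smad6 are shown to compare targets of the pathway, and that of Bmp8b, chosen after its values were seen, as the gene with the largest rise. They come from RefSeq on build GRCm38.p6, where 7 of the 10 genes were matched by symbol. Id1, Bmp2 and Smad7 had no entry. Each run gives the 250 bases before the annotated start, 5′ to 3′ on the gene's strand, with capitals for GGCGCC (a GC-rich box known to bind Smad1 and Smad5) and for GTCT or its reverse complement AGAC (the short Smad box). The Id3 run lies at chr4:136143572-136143821 on the plus strand, the Id2 run at chr12:25096093-25096342 on the minus strand, the Smad6 run at chr9:64022060-64022309 on the minus strand and the Bmp8b run at chr4:123104911-123105160 on the plus strand.
Id3: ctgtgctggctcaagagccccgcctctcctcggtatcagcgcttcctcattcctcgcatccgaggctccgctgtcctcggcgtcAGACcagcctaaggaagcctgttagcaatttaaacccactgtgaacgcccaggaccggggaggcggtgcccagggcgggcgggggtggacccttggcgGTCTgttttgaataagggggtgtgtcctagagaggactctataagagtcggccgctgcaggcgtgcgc
Id2: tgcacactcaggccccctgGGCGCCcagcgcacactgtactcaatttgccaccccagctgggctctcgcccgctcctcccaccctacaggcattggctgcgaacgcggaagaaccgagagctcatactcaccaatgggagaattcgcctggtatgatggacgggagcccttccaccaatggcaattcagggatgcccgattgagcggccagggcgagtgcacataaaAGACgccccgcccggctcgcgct
Smad6: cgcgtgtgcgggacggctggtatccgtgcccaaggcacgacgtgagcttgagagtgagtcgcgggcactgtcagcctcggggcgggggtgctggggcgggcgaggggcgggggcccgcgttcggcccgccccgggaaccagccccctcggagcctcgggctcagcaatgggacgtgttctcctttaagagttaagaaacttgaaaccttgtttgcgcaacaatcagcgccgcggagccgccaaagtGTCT
Bmp8b: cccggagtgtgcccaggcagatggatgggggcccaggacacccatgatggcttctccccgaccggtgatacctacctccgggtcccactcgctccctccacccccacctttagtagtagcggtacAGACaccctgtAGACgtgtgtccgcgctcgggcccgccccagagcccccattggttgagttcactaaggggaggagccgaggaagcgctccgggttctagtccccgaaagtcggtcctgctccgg
The Id2 window held 1 GGCGCC and 1 Smad box. The Smad6 window held 1 Smad box. The Id3 and Bmp8b windows held 2 Smad boxes each and no GGCGCC. Of the matched windows not shown, those of the receptors Bmpr1a and Bmpr2 held 1 GGCGCC each. Of all 32851 windows of this length in RefSeq's table, 9.59% held GGCGCC and 82.9% held a Smad box on either strand, so a Smad box is common in any window. The pair that makes up the BMP response element, GGCGCC followed after 5 bases by GTCT on either strand, was in 0.07% of all windows and in none of the 7 matched ones. The E-box CANNTG, to which the partners of Id proteins bind, was found 1 time in the Id2 and Bmp8b windows each and in 66.2% of all windows. These matches describe letters in a short window and say nothing of binding.

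**Figure D2:**
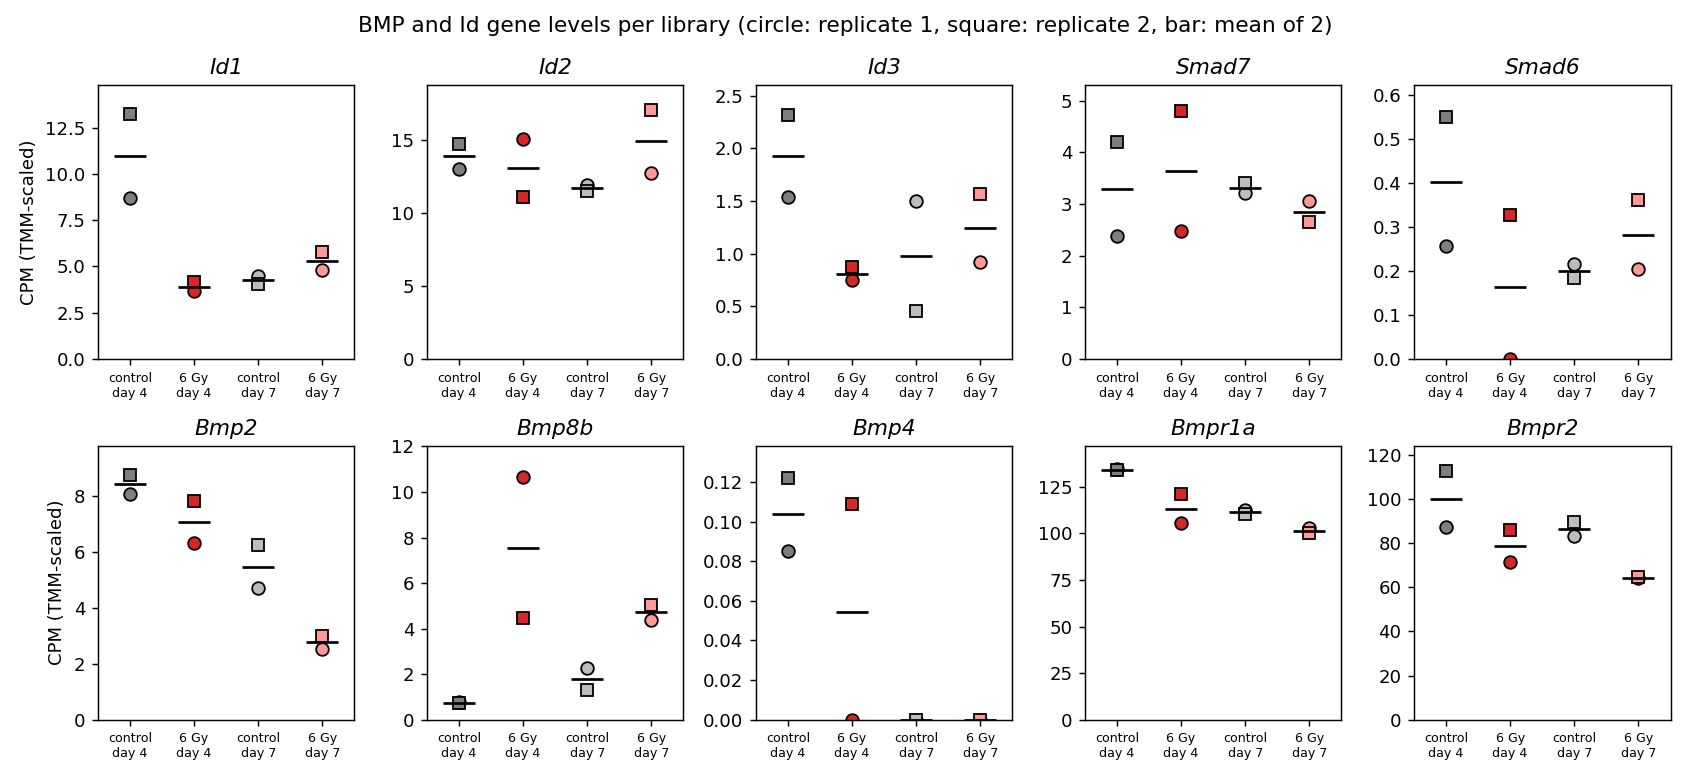
Level in CPM (vertical axes, each from 0) of the 10 genes in each of the 4 groups, with a circle for replicate 1, a square for replicate 2 and a bar for their mean. Id1 is highest in the 2 control libraries of day 4 (8.69 and 13.2 CPM), Bmp8b is highest in irradiated organoids, and Bmp2 is lowest in irradiated organoids of day 7 (2.55 and 3.01 CPM).

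The inhibitory Smads, which BMP signalling induces and which dampen it in return, showed no called difference. Smad7, which also blocks TGF-beta receptors, stood at 2.39 and 4.21 CPM in controls and 2.47 and 4.79 CPM after irradiation at day 4. These groups overlapped. At day 7 it stood at 3.22 and 3.40 CPM in controls and 3.06 and 2.65 CPM after irradiation. Its log2 fold change was 0.12 (SE 0.38, adjusted p = 0.836) at day 4 and -0.21 (SE 0.40, adjusted p = 0.789) at day 7. The replicates of day 4 lay further apart than the groups did.

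Smad6, the inhibitor more selective for BMP receptors, had 3 and 9 counts in controls and 0 and 3 in irradiated organoids at day 4. It had 2 and 2 counts in controls and 2 and 3 after irradiation at day 7. The control to irradiated ratio at day 4 was 2.63 with a counting interval of 0.709 to 14.5, which spans no change and a large fall (adjusted p = 0.568 by edgeR without the filter). Counts as low as these leave a wide range of ratios possible in every comparison of Smad6.

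Of the 3 ligands, Bmp8b rose after irradiation at day 4, Bmp2 fell after irradiation at day 7 and, in irradiated organoids, from day 4 to day 7, and Bmp4 was barely detected. Bmp8b, a ligand of the BMP7 subgroup, stood at 0.767 and 0.731 CPM in controls of day 4, from 9 and 12 rounded counts, and at 10.6 and 4.46 CPM in irradiated organoids. At day 7 it stood at 2.25 and 1.29 CPM in controls and at 4.39 and 5.05 CPM after irradiation. All 4 irradiated libraries lay above all 4 control libraries. The rise at day 4 was 9.97-fold (0.749 ± 0.0251 to 7.55 ± 4.37 CPM, SD, n = 2; log2 fold change 3.32, SE 0.48, adjusted p = 5.20e-04). It was called under all of the alternative settings, with log2 fold changes from 1.56 on the log2(TPM + 1) scale to 3.81, and a highest adjusted p of 0.0231. The replicates of the irradiated group lay far apart, and the log2 fold change was 2.55 without replicate 1 and 3.81 without replicate 2 of that group. At day 7 the 2.68-fold difference missed the threshold (log2 fold change 1.42, SE 0.46, adjusted p = 0.0817). It was called in 4 of 19 alternative settings, among them those without irradiated replicate 1 or 2 of day 4, and not in the other 15. The log2 fold changes over the 19 ran from 0.83 to 1.85. The difference between the days was -1.90 on the log2 scale (SE 0.67, adjusted p = 0.0998) and was not called. Of 18 alternatives 2 called it, with no filter and without irradiated replicate 2 of day 4 (-2.39).

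Bmp8b counts were not whole numbers in 7 of the 8 libraries, so some of its reads were shared out among genes by the authors' counting, and its level is uncertain to that extent. Its near copy Bmp8a had 3 counts in controls and 16 in irradiated organoids at day 4, a ratio of 8.12 (counting interval 2.32 to 43.5). With the counts of Bmp8a and Bmp8b summed, an alternative chosen after seeing the data, the log2 fold change was 3.29 at day 4 (adjusted p = 2.541e-04) and 1.47 at day 7 (adjusted p = 0.0508). In GENCODE M21 the Bmp8b gene overlaps Oxct2b on the same strand, which had 15 counts in all libraries, and Ppie on the opposite strand, and the strand setting of the counting is not given in the sources used here. Ppie was at 27.4 ± 1.72 CPM in controls and 16.9 ± 1.53 CPM in irradiated organoids at day 4 (log2 fold change -0.70, adjusted p = 0.00181), the opposite direction to Bmp8b.

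Bmp2, a ligand that differentiated intestinal epithelium is known to make, stood at 8.09 and 8.78 CPM in controls and at 6.34 and 7.84 CPM in irradiated organoids at day 4. At day 7 it stood at 4.72 and 6.25 CPM in controls and at 2.55 and 3.01 CPM after irradiation. The irradiated libraries of day 7 were the lowest of all 8. Day 7 was 1.99-fold lower after irradiation (log2 fold change -0.99, SE 0.26, adjusted p = 0.0434). Bmp2 was the 1 of the 8 tested genes called at day 7, where 8.65% of all genes were. The call was lost without any of the 4 libraries of day 7 (adjusted p = 0.125 to 0.279) and with DESeq2 (adjusted p = 0.190) and limma-voom (adjusted p = 0.0845), and on both TPM scales (adjusted p = 0.307 and 0.275). At day 4 both irradiated libraries lay below both controls, but the difference was not called (-0.25, SE 0.22, adjusted p = 0.410). The 2 effects were not shown to differ (irradiation by day, -0.74, SE 0.34, adjusted p = 0.196).

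In irradiated organoids Bmp2 was 2.55-fold lower at day 7 than at day 4 (7.09 ± 1.06 against 2.78 ± 0.323 CPM, SD, n = 2; log2 fold change -1.35, SE 0.26, adjusted p = 0.00343). It was the 1 of the 8 tested genes called between the days after irradiation, where 33% of all genes were. Without irradiated replicate 1 of day 7 the adjusted p was 0.0504, and on the TPM scales it was 0.0904 and 0.0743. In control organoids the same change was -0.62 (SE 0.23, adjusted p = 0.183). Bmp4, a ligand made mainly by intestinal mesenchyme in the living gut, had 1 and 2 counts in controls of day 4, 0 and 1 in irradiated organoids of day 4 and none in the 4 libraries of day 7. Both groups of each comparison were at or under the floor of 3 counts, so no fold is given.

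The receptors were the best measured of the genes, with 7239 counts for Bmpr2 and 9948 for Bmpr1a over the 8 libraries, and their differences were small. Bmpr1a, a type 1 receptor for BMP2 and BMP4, stood at 134.4 and 133.7 CPM in controls and at 105 and 121 CPM in irradiated organoids at day 4. At day 7 it stood at 113 and 110.3 CPM in controls and at 103 and 100.1 CPM after irradiation. The control libraries lay above the irradiated ones on each day. The fall at day 4 was 1.18-fold (log2 fold change -0.24, SE 0.08, adjusted p = 0.0445) and close to the threshold. It lost its call without any library but irradiated replicate 2 of day 4 (adjusted p = 0.0671 to 0.131) and with DESeq2 (adjusted p = 0.112). At day 7 the difference was -0.14 (SE 0.09, adjusted p = 0.356).

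Bmpr2, the type 2 receptor that is largely dedicated to BMPs, stood at 87.2 and 112 CPM in controls and at 71.6 and 86.0 CPM in irradiated organoids at day 4. At day 7 it stood at 83.4 and 89.7 CPM in controls and at 64.0 and 64.5 CPM after irradiation. It was lower in irradiated organoids on each day without overlap, yet just outside the threshold, at -0.34 on the log2 scale on day 4 (SE 0.13, adjusted p = 0.0596) and -0.43 on day 7 (SE 0.13, adjusted p = 0.0707). The day 4 difference was called in 4 of 19 alternative settings, with log2 fold changes from -0.53 to -0.15 over the 19. These 4 included the fits without control replicate 1 or irradiated replicate 2 of that day. The day 7 difference was called in 7 of 19 (-0.49 to -0.25). Among these were each fit without 1 library of day 4 and the edgeR fit of the day 7 groups alone (adjusted p = 1.465e-06). The day 7 difference was not called in the other 12, nor was the day 4 difference in the other 15. On the log2(TPM + 1) scale the median of all genes itself shifted, by -0.17 at day 4 and 0.12 at day 7, which is of the order of these receptor differences.

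**Figure D3:**
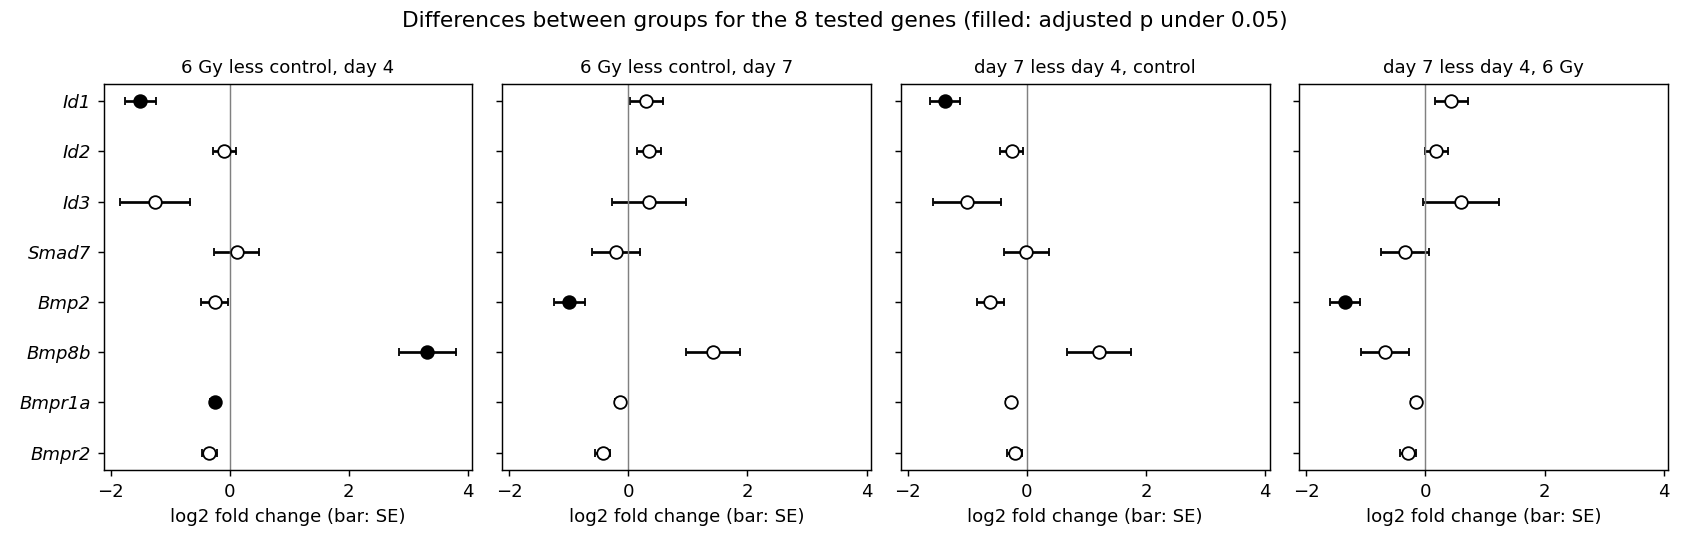
Log2 fold change (horizontal axes, bars are the SE) of the 8 tested genes for irradiation at day 4 and day 7 and for day 7 against day 4 in control and irradiated organoids, with filled points for an adjusted p under 0.05. Id1 lies at -1.499 and Bmp8b at 3.32 for irradiation at day 4, and the receptors lie within -0.43 and -0.14 for irradiation on either day.

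Other genes of the BMP pathway, taken from lists by role, numbered 51 in the table, of which 42 had at least 1 count and 20 were tested. At day 4, 5 of the 20 were called lower and 2 higher after irradiation, with a median log2 fold change of -0.02. These 7 of 20 stand beside 36.5% of all genes called, a like share. Among the other ligands, Bmp3 and Bmp7 were the 2 that were tested, and both fell. Bmp3, an atypical member that can oppose other BMPs, stood at 69.5 and 55.9 CPM in controls and at 47.3 and 28.4 CPM in irradiated organoids (-0.72, SE 0.21, adjusted p = 0.0308). Bmp7 stood at 24.6 and 27.7 CPM in controls and at 18.9 and 18.7 CPM after irradiation (-0.48, SE 0.12, adjusted p = 0.0113). After irradiation Bmp7 was back at 29.4 and 27.3 CPM on day 7, a rise of 0.59 on the log2 scale over day 4 (SE 0.12, adjusted p = 0.00543). Bmp3 lost its call without control replicate 1 of that day (adjusted p = 0.123), and Bmp7 without control replicate 2 (0.0550).

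Of the 4 other receptors and co-receptors tested, 2 fell at day 4, where 36.5% of all genes were called. Rgmb, a membrane-anchored co-receptor for BMP ligands, stood at 134 and 121 CPM in controls and at 94.7 and 79.3 CPM in irradiated organoids (-0.55, SE 0.10, adjusted p = 0.00230). This call was lost on log2(TPM + 1) and log2(TPM + 0.1) (adjusted p = 0.0987 and 0.103). Rgmb rose with time in control organoids, to 215 and 204 CPM (0.72, adjusted p = 0.00687), and in irradiated organoids, to 170.2 and 155 CPM (0.90, adjusted p = 2.92e-04). It was still lower after irradiation at day 7 (-0.37, adjusted p = 0.0498). The day 7 call of Rgmb was lost without any library of day 7 (adjusted p = 0.178 to 0.398), and the rise in controls without control replicate 1 or 2 of day 7 (adjusted p = 0.107 and 0.0892). Acvr2b, a type 2 receptor shared with activins, fell by 0.92 on the log2 scale at day 4 (SE 0.28, adjusted p = 0.0252), a call lost without any library of day 4 except control replicate 1 (adjusted p = 0.0633 to 0.139). Acvr2a, the related type 2 receptor, fell in irradiated organoids from day 4 to day 7 by 0.38 on the log2 scale (SE 0.10, adjusted p = 0.0135). It missed the threshold without irradiated replicate 2 of day 4 or either irradiated library of day 7 (adjusted p = 0.0559 to 0.170).

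Of the signal-carrying Smads, Smad1, Smad4 and Smad5 were tested and Smad9 had too few counts. Smad1 stood at 36.6 and 36.6 CPM in controls and at 29.7 and 29.3 CPM in irradiated organoids at day 4 (-0.31, SE 0.10, adjusted p = 0.0392), and its call was lost without each library in turn (adjusted p = 0.0537 to 0.0877). Smad4 at day 4 was at 76.3 ± 0.330 and 66.1 ± 6.53 CPM and Smad5 at 49.1 ± 2.69 and 46.3 ± 4.49 CPM (SD, n = 2), and neither was called. In irradiated organoids Smad4 was higher at day 7 than at day 4 (0.30, SE 0.09, adjusted p = 0.0316), a call lost without either irradiated library of day 7, irradiated replicate 2 of day 4 or either control library of day 7 (adjusted p = 0.0541 to 0.131).

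Of 16 listed secreted antagonists 3 were tested, Twsg1, Dand5 and Nbl1. At day 4, 1 of them was called, where 36.5% of all genes were. Twsg1, which binds BMPs together with chordin, was the most abundant, at 47.7 ± 1.20 CPM in controls and 41.6 ± 0.750 CPM in irradiated organoids of day 4 (SD, n = 2), and was not called (-0.20, SE 0.09, adjusted p = 0.122). Dand5 was at 1.27 ± 0.498 and 1.52 ± 0.625 CPM in the same groups and was not called (adjusted p = 0.702). Nog, the gene for noggin, had no count in any library. Nbl1, a secreted antagonist of the DAN family, rose from 3 and 11 counts to 23 and 15 counts at day 4 (2.06, SE 0.55, adjusted p = 0.0144) and stood at 2 and 2 counts in controls and 16 and 13 counts after irradiation at day 7 (2.94, SE 0.69, adjusted p = 0.0293). The counting ratios were 4.13 (interval 2.19 to 8.26) and 8.08 (2.84 to 31.6). The day 4 call was lost without control replicate 1 or irradiated replicate 1 of that day (adjusted p = 0.0740 and 0.0889), and the day 7 call without any library of day 7 (0.139 to 0.202). DESeq2 gave an adjusted p of 0.0920 at day 4 and 0.0863 at day 7.

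Of the 6 membrane and intracellular inhibitors, Tob1, an antiproliferative protein that binds Smads, rose at day 4 from 70.0 and 102 CPM to 117 and 146 CPM (0.61, SE 0.18, adjusted p = 0.0319). Its call was lost in 6 of the 8 fits without 1 library (adjusted p = 0.0593 to 0.214) and held when the library left out was control replicate 2 or irradiated replicate 1 of day 4. In irradiated organoids Tob1 fell from day 4 to day 7 by 1.14 on the log2 scale (SE 0.19, adjusted p = 0.00324). Bambi, a decoy receptor, was at 2.53 ± 0.643 CPM in controls and 3.14 ± 0.0277 CPM after irradiation at day 4 and was not called. Of the E proteins that Id proteins bind, Tcf3 fell by 0.38 (SE 0.11, adjusted p = 0.0178) and Tcf4 by 0.39 (SE 0.12, adjusted p = 0.0293) on the log2 scale at day 4, beside the fall of Id1. Without irradiated replicate 2 of day 4 their adjusted p was 0.0767 and 0.147. Tcf3 was also not called without control replicate 2 of that day (0.0682), nor Tcf4 without control replicate 1 (0.0915). Tcf3 then rose in irradiated organoids, from 43.0 and 36.5 CPM at day 4 to 74.1 and 83.0 CPM at day 7 (0.98, SE 0.11, adjusted p = 2.52e-04). The irradiation effect on Tcf3 differed between the days by 0.66 (SE 0.15, adjusted p = 0.0228), and not past the threshold without control replicate 2 of day 4 or any library of day 7 (adjusted p = 0.0537 to 0.104).

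**Figure D4:**
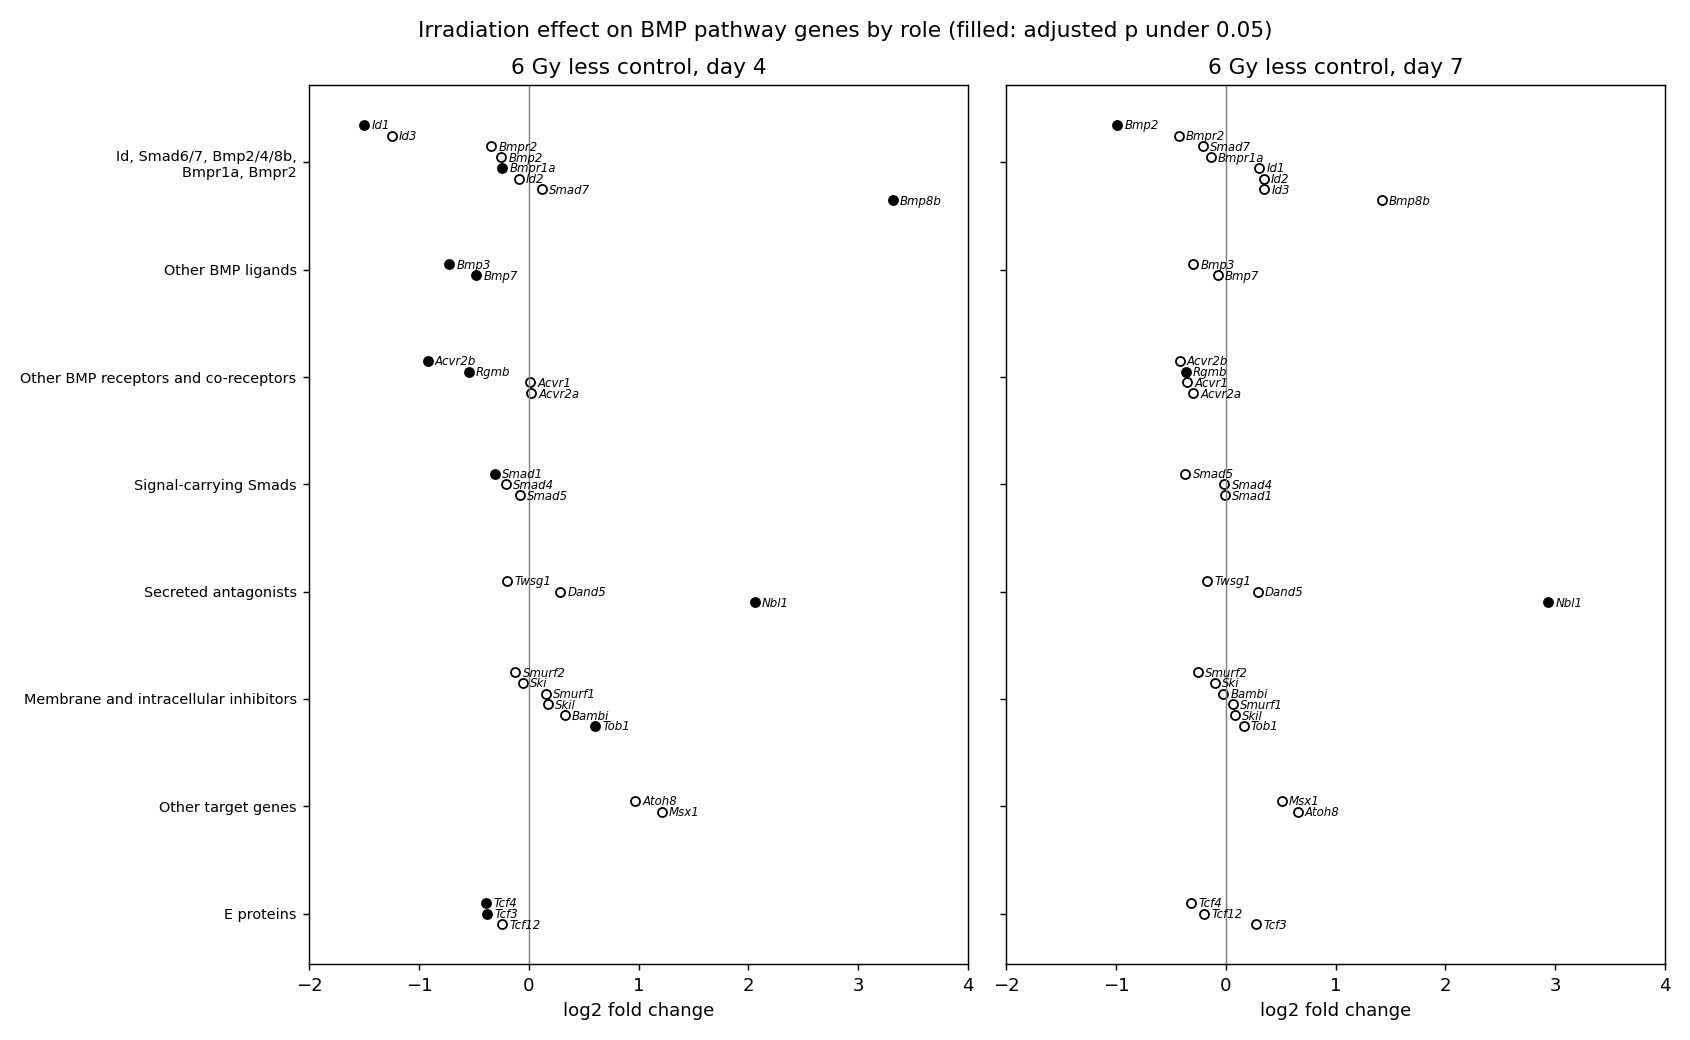
Log2 fold change (horizontal axes) after irradiation at day 4 and day 7 of the tested genes, 1 point per gene, grouped by their role in the BMP pathway, with filled points for an adjusted p under 0.05. At day 4 the ligands Bmp3 and Bmp7 and the co-receptor Rgmb lie to the left of 0 and Nbl1 lies at 2.06, while at day 7 the filled points are Bmp2, Rgmb and Nbl1.

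The neighbouring TGF-beta and activin branch, which signals through Smad2 and Smad3, had 9 tested genes of 13, of which 3 were called higher and 1 lower after irradiation at day 4 (median log2 fold change -0.13). Tgfbr3, a co-receptor of TGF-beta that also binds BMPs, rose from 0.937 and 1.04 CPM to 6.24 and 5.55 CPM (2.56, SE 0.38, adjusted p = 6.02e-04). It was at 0.919 and 0.842 CPM in irradiated organoids of day 7. Its day 4 call was lost on log2(TPM + 1) and log2(TPM + 0.1) (adjusted p = 0.0576 and 0.107). Acvr1c, a type 1 receptor for activin-like ligands, fell from 13.2 and 24.7 CPM to 4.30 and 5.12 CPM (-2.02, SE 0.29, adjusted p = 6.49e-04). Tgfb2, a TGF-beta ligand, rose from 4 and 1 to 12 and 25 counts (3.37, SE 0.76, adjusted p = 0.00624), and was not called without replicate 2 of either day 4 group (adjusted p = 0.0599 and 0.0553). Tgfbr2, the type 2 receptor of TGF-beta, rose by 0.34 on the log2 scale (SE 0.10, adjusted p = 0.0178), and was not called without control replicate 1 of day 4 or of day 7 (adjusted p = 0.118 and 0.0509). The effect on Tgfbr3 differed between the days by -3.19 (SE 0.59, adjusted p = 0.0110), a difference not called without control replicate 2 or either irradiated library of day 7 (adjusted p = 0.0587 to 0.0794). From day 4 to day 7 in irradiated organoids Tgfbr3 fell by 2.72 (SE 0.41, adjusted p = 9.94e-04) and Tgfbr2 by 0.55 (SE 0.10, adjusted p = 0.00234) on the log2 scale, while Smad3, which carries TGF-beta and activin signals, rose by 0.49 (SE 0.12, adjusted p = 0.0107). Without irradiated replicate 1 of day 7 the adjusted p was 0.0513 for Tgfbr2 and 0.0688 for Smad3. In controls Acvr1c fell between the days by 1.20 (SE 0.27, adjusted p = 0.0490), and this call did not hold without control replicate 2 of day 4 or any library of day 7 (adjusted p = 0.113 to 0.314). With 3 of 8 and 4 of 9 genes called, the BMP list and this list were each near the 36.5% of all genes.

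Markers of epithelial cell types and of cell division also differed between the groups. At day 4 all 10 enterocyte markers were called higher after irradiation, where 36.5% of all genes were called. Their sum was 3774 to 4214 CPM in controls and 13153 to 21707 CPM in irradiated organoids. Of 6 mitosis genes 5 fell, and their sum was 1845 to 1935 CPM in controls and 863 to 1049 CPM after irradiation, and 3 of 4 stem cell markers fell, from a sum of 1537 to 1647 CPM to 690.2 to 823 CPM. The stem cell marker Ascl2 did not fall, with 3.66 and 4.82 CPM in controls and 5.16 and 5.01 CPM after irradiation. All 4 Paneth cell markers rose, from 839 to 1475 CPM in sum to 2691 to 4112 CPM. Of 4 goblet cell markers 2 were called higher and 1 lower. All 3 tuft cell markers were called lower, and of 3 enteroendocrine markers 0 were called. What part these shifts had in the fall of Id1 or the rise of Bmp8b was not tested. In control organoids of day 7, where Id1 was also low, the enterocyte sum was 3706 to 3774 CPM, the mitosis sum 1706 to 1707 CPM and the stem cell sum 2583 to 2639 CPM. The summed level of 6 immune markers was highest after irradiation at day 4 (6.34 to 8.49 CPM) and 2.30 to 4.21 CPM elsewhere. Both immune markers that were tested, the myeloid genes Csf1r and Itgam, were called higher at day 4. Csf1r went from 0.0852 and 0.0610 to 1.83 and 1.63 CPM, and Itgam from 2.13 and 3.23 to 4.30 and 6.64 CPM. Ptprc had 6 counts over all libraries, Cd3e 2 and Adgre1 none. Calls at day 4 were not limited to immune markers. Of 3 tested endothelial markers 1 was called higher and 1 lower, and of 2 tested markers of enteric glia 1 was called higher. The part of all these genes in the results was not tested.

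Among 10516 other genes whose mean reached 5 CPM, those with profiles most like that of Id1 over the 8 libraries were Sars, a seryl-tRNA synthetase (Pearson r 0.98), Cth, the enzyme cystathionine gamma-lyase (0.97), and Sil1, a co-factor of an endoplasmic reticulum chaperone (0.97). Cth averaged 91.5 CPM in controls of day 4, 42.9 CPM in irradiated organoids of day 4, 51.9 CPM in controls of day 7 and 57.9 CPM in irradiated organoids of day 7, with the same high group as Id1. For Id2 they were Glul (0.91), Otub1 (0.90) and Acpp (0.90), and for Id3 1700021F05Rik (0.96), Tmem110 (0.93) and Abhd14b (0.90). For Bmp2 they were Strn3 (0.98), the hexokinase gene Hk1 (0.97) and Ndrg1 (0.97). Ndrg1 averaged 816 CPM in controls and 697 CPM in irradiated organoids of day 4, then 546 and 309.5 CPM at day 7, the order seen for Bmp2. These are descriptions over 8 libraries that share the 4 groups and the sequencing depth.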

How the data were processed

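Poly-A RNA of 8 organoid libraries was sequenced with a directional kit, per the labels' protocols. The authors deposited expected counts and TPM per gene, per the file headers. The submitters' processing notes name the aligner STAR 2.7.3a, the counter RSEM 1.3.3, the read tools Trim Galore and FastQC, and the builds GRCm39 and mm10 without saying which served what. The annotation release is not given in the sources used here, nor is the strand setting. Symbols came from GENCODE M21 by gene ID (52083 of 55416 matched). Expected counts were rounded, which changed 11.45% of values, filtered with filterByExpr (minimum count 10, minimum total 15) and tested in edgeR 4.0.16 (robust quasi-likelihood, TMM scaling, 4 group means, 4 residual degrees of freedom, two-sided, Benjamini-Hochberg adjustment over 14063 genes). Alternatives used DESeq2 1.42.0, limma 3.58.1, TPM scales, other filters, a replicate block and each library left out. The fits were tested on simulated data. Intervals cover counting error only. The genes and lists were chosen with earlier results of these data known. The text names the 10 genes, called list genes with the smallest adjusted p (at most 4 per role and comparison) and the 3 genes with the highest r to each of Id1, Id2, Id3 and Bmp2. The r values used log2 CPM (prior count 2), and Bmp4 had too few counts for them.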

Additional observations from a re-analysis of the deposited data

Results flagged for a closer look

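The irradiation effect on Id1 differed between the days: -1.499 on the log2 scale at day 4 and 0.30 at day 7, a difference of 1.80 by the edgeR interaction test (adjusted p = 0.0173). The control libraries of day 4 had 8.69 and 13.2 CPM, and the other 6 libraries lay between 3.66 and 5.78 CPM. The call was lost without any of the 4 libraries of day 7 (adjusted p = 0.0580 to 0.0876).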

How the results depend on the processing

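The 68 results for single genes were recomputed under the alternatives, which gave 1263 values. In 1077 of them the result was called or not called as in the main fit, which includes results that were never called. A call was lost in 163 and gained in 23, and no called result changed direction. The 163 losses can come only from results called in the main fit, so their share of those values is larger than of all 1263. Some results that were not called did change sign, such as the irradiation effect on Smad7 at day 4 (log2 fold change -0.44 to 0.60). The cause of these losses and gains was not tested. Of the 8 tested genes, 3 were called for irradiation at day 4 (2 to 4 with 1 library left out). At day 7, 1 was called, against 3 with no filter, 0 with DESeq2, limma-voom, log2(TPM + 1) and log2(TPM + 0.1), 4 in a fit of the groups compared, 2 with the replicate block and 0 to 3 with 1 library left out. For irradiation by day, 1 was called, against 2 with no filter and 0 to 2 with 1 library left out. Between the days 1 was called in control and 1 in irradiated organoids, 0 in either on both TPM scales, and 0 to 2 and 0 to 3 with 1 library left out. Over all genes, irradiation at day 4 gave 5130 calls, 2686 on log2(TPM + 1), 2598 on log2(TPM + 0.1), 3228 in a fit of the groups compared and 3842 to 5101 with 1 library left out. Day 7 gave 1216, against 2044 with no filter, 328 and 311 on the TPM scales, 4732 in a fit of the groups compared and 105 to 2341 with 1 library left out. Irradiation by day gave 1422, against 2456 with no filter, 179 and 144 on the TPM scales and 244 to 2718 with 1 library left out. The days differed in 382 genes in controls, against 1217 with no filter, 40 and 35 on the TPM scales, 620 in a fit of the groups compared and 17 to 1234 with 1 library left out, and in 4639 after irradiation (2094 to 5252 with 1 library left out). On log2(TPM + 1) the share of calls that were higher went from 54.7% to 40.0% for irradiation at day 4, from 54.4% to 81.7% at day 7, and from 46.1% to 57.5% in controls and from 44.6% to 81.1% in irradiated organoids between the days. The main fit shared 1 estimate of the spread among the 4 groups, and the spread was unequal. By chi-square per degree of freedom, the 2 libraries of a group lay further apart at day 4 (21.7 in controls, 32.2 after irradiation). At day 7 the values were 6.30 in controls and 3.52 after irradiation. Calls at either day, and the shares of all genes called, depend on this sharing. Deviations from the group means, taken by replicate number, correlated at -0.04 to 0.06 between groups. This cannot tell whether libraries of the same number came from the same mice or cultures. With the replicate block Bmpr1a was not called at day 4 (adjusted p = 0.0503), and Bmpr2 was called at day 4 (0.0234) and day 7 (0.0325). At these depths Smad6 and Bmp4 did not pass the filter, and a library with 0 counts of a gene allows up to 0.183 to 0.361 CPM.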
